A study of Mus musculus with 8 samples.

Results

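Liver sinusoidal endothelial markers are genes by which the fenestrated endothelium that lines the liver's capillaries is told from other liver cells. All 10 listed markers (Stab1, Stab2, Lyve1, Clec4g, Fcgr2b, Dnase1l3, Kdr, Gpr182, Bmp2 and Oit3) were found on the array by the gene symbol in the deposited table, among 26866 gene symbols in all, with 20 probes. Probes were matched to the list by gene name alone and by no measured value. The list itself was chosen with earlier results of these data known. All liver RNA was from females of the NFS/sld strain, whose neonatal thymectomy models primary Sjögren's syndrome, in which autoimmunity destroys salivary and lacrimal glands. For the 4 Tx arrays, the thymus had been removed on day 3 of life and the liver was collected 8 weeks later, while the 4 nonTx arrays came from females of this strain with their thymus left in place. The labels give neither the age of the nonTx mice nor a sham operation, and they do not say that each replicate was a separate animal, so the spread behind every p-value may in part be technical.

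Sinusoidal endothelial cells clear waste from portal blood through scavenger and Fc receptors, and they secrete signals that hepatocytes read. They lack a continuous basement membrane, and their identity is lost in a process called capillarisation, in which they take on features of ordinary vascular endothelium. The comparison asks whether the transcripts of this cell type differ in liver once the thymus has been removed.

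Each array was scanned once, on 1 slide and in 1 session, and between 51.1% and 57.1% of its gene probes were well above background. The 75th percentile of the signal ran from 225.0 to 330.0 between arrays and was highest for Tx replicate 1. Before scaling, Tx replicate 1 was the brightest array for 8 of the 10 markers and for 47.3% of all tested genes. After scaling to that percentile it was the brightest for 1 of the 10 and for 13.35% of all tested genes, so all comparisons use the scaled values. By the array positions in the file headers, nonTx lay at positions whose first index is 1 and Tx at those whose first index is 2, so that position on the slide and group cannot be told apart. Scaling to the array median in place of the 75th percentile moves every difference up by 0.10 on the log2 scale, and differences of that size depend on this choice.

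None of the 10 markers differed between thymectomised and control livers beyond the spread between arrays. By limma, 0 of 10 passed at an adjusted p under 0.05, where 0% of 30955 tested probes passed, and 0 of 10 had an unadjusted p under 0.05, where 13.9% of 16495 tested genes did. That count of markers was 2 with quantile normalization (Stab2 and Kdr, lower), 2 with scaling to the median (Clec4g and Dnase1l3, higher), 1 with normexp (Clec4g), 2 without Tx replicate 1 (Kdr and Dnase1l3), and 1 each without Tx replicate 2 (Clec4g) and nonTx replicate 2 (Lyve1), with 0 passing after adjustment in each. Over all 30955 tested probes the count at an unadjusted p under 0.05 moved too. It was 4085 in the main fit, 3347 with quantile normalization, 5909 with scaling to the median and 3517 with normexp. Without Tx replicate 1 it was 6317, without Tx replicate 2 5248 and without nonTx replicate 2 2938. The groups of all 10 markers overlapped, whereas those of 8.06% of tested genes did not. Of the 10, 5 lay lower and 5 higher in Tx, beside 43.7% of all tested genes lower. Their median log2 difference was -0.05, beside 0.03 over all tested genes. The differences ran from -0.19 for Lyve1 to 0.22 for Dnase1l3. The upper ends of the 95% intervals lay between 1.02-fold and 1.38-fold higher in Tx, and the lower ends between 1.02-fold and 1.504-fold lower. In whole liver RNA, fewer cells of a type and less RNA per cell cannot be told apart.

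**Figure D1:**
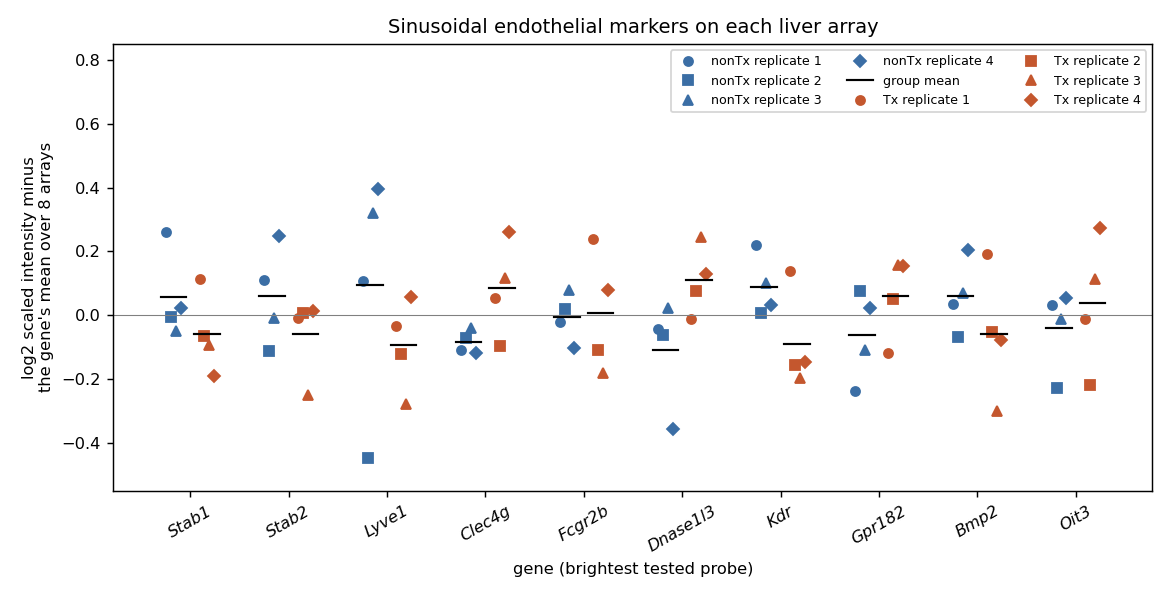
Scaled log2 intensity of each marker on each of the 8 arrays, minus that gene's mean over the 8 arrays; blue marks are nonTx, orange marks Tx, the shape gives the replicate number and the black bars are group means. The Tx and nonTx marks overlap for all 10 genes, and Lyve1 has the widest scatter (SD 0.38 within nonTx).

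All 10 markers were well above background on all 8 arrays. The SD over the 8 arrays was below that of the median tested gene for 9 of the 10, with Lyve1 the exception at the 69.6th percentile. Genes were not matched by intensity for this comparison. The levels below are log2 intensities relative to the array's 75th percentile, from the brightest tested probe of each gene. They compare arrays for 1 gene and do not rank genes against each other.

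Promoter sequences are shown for the stabilins and for Kdr, because the stabilins are the endocytic receptors by which this endothelium is best known, and Stab1 and Kdr were the marker pair with the closest profiles over the arrays (root mean square difference 0.08 on the log2 scale). Of the 10 markers, 5 were in the RefSeq promoter table for GRCm38.p6. The windows cover 250 bases before the start site in that table, 5′ to 3′ on the gene's strand. Searched on both strands were AGATAA (bound by GATA factors), CAGGAAG (ETS factors) and TGCTGA (MAF factors), which do not overlap each other in these windows, and matches are in capitals. The windows lie at chr14:31168642-31168891 for Stab1, chr10:87007943-87008192 for Stab2 and chr5:75978456-75978705 for Kdr, all on the minus strand.
Stab1: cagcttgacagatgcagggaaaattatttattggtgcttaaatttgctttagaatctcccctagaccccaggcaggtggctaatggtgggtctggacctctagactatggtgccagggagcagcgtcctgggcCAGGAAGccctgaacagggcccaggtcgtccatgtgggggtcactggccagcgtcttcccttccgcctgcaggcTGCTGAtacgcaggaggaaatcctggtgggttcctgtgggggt
Stab2: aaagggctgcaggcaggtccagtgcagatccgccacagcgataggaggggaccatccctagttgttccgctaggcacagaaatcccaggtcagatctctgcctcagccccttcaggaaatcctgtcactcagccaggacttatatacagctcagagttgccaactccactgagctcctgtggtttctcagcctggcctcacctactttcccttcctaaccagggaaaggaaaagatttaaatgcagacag
Kdr: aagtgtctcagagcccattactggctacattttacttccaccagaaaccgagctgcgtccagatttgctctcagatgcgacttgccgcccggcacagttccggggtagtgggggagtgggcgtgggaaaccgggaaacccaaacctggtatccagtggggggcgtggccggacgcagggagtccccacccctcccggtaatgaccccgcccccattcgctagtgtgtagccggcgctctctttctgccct

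Stab1 held 1 match to CAGGAAG, starting 117 bases before the start site, and 1 to TGCTGA, starting 43 bases before it. Stab2, Kdr, Clec4g and Fcgr2b held 0 matches to the 3 motifs. Among 32536 windows of the same length, AGATAA was found in 9.97%, CAGGAAG in 10.8% and TGCTGA in 16.1%. The Kdr window had the highest GC content of the 5, at 61.6%, beside 57.2% for Stab1, 53.2% for Stab2, 52.0% for Clec4g, 45.2% for Fcgr2b and a median of 52.4% over all windows. These are descriptions of letters in a window and not of binding.

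Stab1 and Stab2 encode the stabilins, large endocytic receptors that take up hyaluronan, modified lipoproteins and other waste. With arrays given in the order of their replicate number here and below, Stab1 stood at 2.75, 2.49, 2.44 and 2.52 in nonTx and at 2.61, 2.43, 2.40 and 2.30 in Tx. Tx replicate 1 lay above 3 of the nonTx arrays, and the other Tx arrays lay below all of them. The log2 difference was -0.12 ± 0.10 (SE, n = 4 arrays per group, limma adjusted p = 0.598). Stab2 stood at 4.74, 4.52, 4.62 and 4.88 in nonTx and at 4.62, 4.63, 4.38 and 4.64 in Tx. Only Tx replicate 3 lay below all nonTx arrays, and the difference was -0.12 ± 0.10 (limma adjusted p = 0.589). It was -0.26 with quantile normalization and -0.06 without Tx replicate 3 or without nonTx replicate 4, and with scaling to the median both stabilin genes stood at -0.02. Stab1 was -0.05 without nonTx replicate 1.

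Stab2 was read by 5 probes, more than any other marker, and all 5 lay lower in Tx, by -0.02 to -0.31 on the log2 scale, with no adjusted p under 0.438 by limma. These probes read the same gene in the same RNA and are not independent of each other. The probe with the difference of -0.31 (A_55_P2741015) stood at 0.60, 0.60, 0.38 and 0.71 in nonTx and at 0.73, -0.05, 0.02 and 0.36 in Tx. Tx replicate 1 was its highest array while the other Tx arrays were its lowest. Lyve1, a hyaluronan receptor shared with lymphatic endothelium, stood at -0.60, -1.16, -0.39 and -0.32 in nonTx and at -0.75, -0.83, -0.99 and -0.65 in Tx. The highest Tx value fell short of 3 nonTx arrays, and nonTx replicate 2 lay below all others. Its difference was -0.19 ± 0.18 (limma adjusted p = 0.638). Without nonTx replicate 2, the array that made the groups overlap, the difference was -0.37 with no overlap and an adjusted p of 0.507.

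Clec4g encodes the C-type lectin LSECtin, which binds glycans on pathogens and on activated T cells. It stood at 6.18, 6.22, 6.25 and 6.17 in nonTx and at 6.35, 6.20, 6.41 and 6.55 in Tx, with the tightest nonTx group of the list (SD 0.04). Every Tx array except replicate 2 lay above every nonTx array, and the difference was 0.17 ± 0.09 (limma adjusted p = 0.418). Without Tx replicate 2, the array that made the groups overlap, the difference was 0.23 with no overlap (adjusted p = 0.244). With all arrays and quantile normalization the difference turned to -0.02. A second, dim Clec4g probe (intensities of 16.6 to 29.5), which cleared background on only 2 of 4 Tx arrays, had a difference of -0.31 ± 0.20, so that the mean of both probes was -0.07.

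Fcgr2b encodes the inhibitory Fc gamma receptor, which in liver removes small immune complexes and is also carried by B cells and macrophages. Its brightest probe stood at 2.45, 2.48, 2.54 and 2.36 in nonTx and at 2.70, 2.36, 2.29 and 2.54 in Tx. The Tx arrays spread to both sides of the nonTx arrays, with a difference of 0.01 ± 0.10 (limma adjusted p = 0.966). The other probe, annotated to a different transcript of the gene, differed by 0.17 ± 0.10 (adjusted p = 0.474). The sign of the brightest probe changed with quantile normalization (-0.04), with array weights (-0.01) and without Tx replicate 1 (-0.06). Of 8 other tested Fc gamma receptor and signalling genes, 0 had an unadjusted p under 0.05, beside 13.9% of all tested genes. The median difference of the 8 was 0.03, with 6 higher and 2 lower. Among them the neonatal Fc receptor gene Fcgrt differed by 0.10 ± 0.10 and the kinase gene Syk by 0.08 ± 0.10. With quantile normalization Fcgrt turned to -0.02, and with the mean of its tested probes Syk turned to -0.14.

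Dnase1l3 encodes a secreted DNase that digests DNA in chromatin and microparticles and whose loss causes lupus-like autoimmunity. It had the smallest p of the 10 markers, and that p was 0.0736 before adjustment. It stood at 0.26, 0.24, 0.33 and -0.05 in nonTx and at 0.29, 0.38, 0.55 and 0.43 in Tx. Tx replicates 2, 3 and 4 lay above all nonTx arrays, and Tx replicate 1 lay below nonTx replicate 3. The difference was 0.22 ± 0.11 (limma adjusted p = 0.407), or 1.16-fold, with a 95% interval from 0.983-fold to 1.38-fold. Without nonTx replicate 3, an array whose removal ends the overlap by construction, the difference was 0.26 (limma adjusted p = 0.492). Of the 6 other DNase genes tested, Dnase2a, a lysosomal DNase, had the smallest p, at a difference of -0.55 ± 0.22 (limma adjusted p = 0.349). With the mean of its tested probes Dnase2a was -0.15, and without Tx replicate 3 it was -0.33. Dnase1 differed by 2.09 ± 1.72, a value set by Tx replicate 4, whose intensity was 5444 where the other 7 arrays read 9.09 to 29.4. Without Tx replicate 4 it was -0.08.

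**Figure D2:**
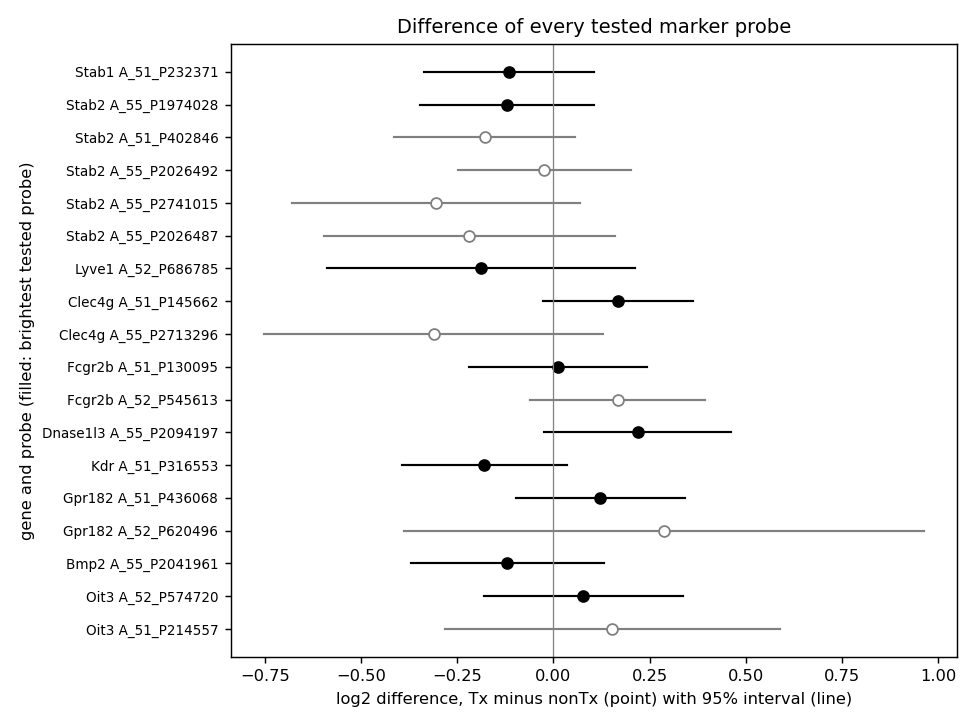
Log2 difference of Tx minus nonTx (points) with its 95% interval from limma (lines) for the 18 tested probes of the 10 markers; filled points are each gene's brightest tested probe and open points its other probes. Every interval includes 0, all 5 Stab2 probes lie left of it, and the pair of Clec4g probes lie on opposite sides.

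Kdr encodes VEGF receptor 2, the main receptor through which VEGF-A keeps this endothelium alive and differentiated. It stood at 3.68, 3.47, 3.57 and 3.496 in nonTx and at 3.60, 3.31, 3.27 and 3.32 in Tx. Tx replicates 2, 3 and 4 lay below every nonTx array, whereas Tx replicate 1 lay above 3 of them. The difference was -0.18 ± 0.10 (limma adjusted p = 0.428), or 0.883-fold, with a 95% interval from 0.761-fold to 1.02-fold. Without Tx replicate 1 the difference was -0.26 and the groups no longer overlapped, at an adjusted p of 0.159. A pair of other Kdr probes cleared background on 0 of 8 arrays and was not tested.

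Other genes of VEGF signalling showed no shared shift. Of 9 tested ligand and receptor genes, 6 were higher and 3 lower, with a median difference of 0.12. The ligand genes Vegfa and Vegfb differed by 0.05 ± 0.13 and 0.20 ± 0.15, and the receptor gene Flt1 by -0.04 ± 0.12. Nrp2, a co-receptor for VEGF and semaphorins, was the exception in size. Its unscaled intensities were 11454, 12275, 7954 and 13569 in nonTx and 50126, 11475, 43945 and 27008 in Tx. Tx replicates 1, 3 and 4 lay above all nonTx arrays, and Tx replicate 2 lay among them. The difference was 1.53 ± 0.38 (limma adjusted p = 0.283). Without Tx replicate 2, an array whose removal enlarges the difference by construction, it was 1.96 and passed (limma adjusted p = 0.0061). In that fit 188 of 30955 tested probes passed, where 0 did with all arrays. With the mean of its tested probes the Nrp2 difference was 0.64 (limma adjusted p = 0.341).

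Gpr182, an endothelial receptor that scavenges chemokines, stood at 3.68, 3.99, 3.81 and 3.94 in nonTx and at 3.80, 3.97, 4.08 and 4.07 in Tx. Tx replicates 3 and 4 lay above all nonTx arrays, and the difference was 0.12 ± 0.10 (limma adjusted p = 0.575). Its dimmer probe, at intensities of 18.3 to 57.0, differed by 0.29 ± 0.30. Oit3, a secreted zona pellucida domain protein whose role in liver is less well described, stood at 2.87, 2.61, 2.82 and 2.89 in nonTx and at 2.83, 2.62, 2.95 and 3.11 in Tx. Replicate 2 was the lowest of each group, and the difference was 0.08 ± 0.12 (limma adjusted p = 0.776). Its second probe differed by 0.15 ± 0.20. Without Tx replicate 4 the Oit3 difference was 0.00 (-0.0005).

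Bmp2 is the secreted signal of the list. With Bmp6 it is released by sinusoidal endothelium and acts on hepatocytes through BMP receptors and SMAD proteins to set the level of hepcidin, the iron hormone encoded by Hamp. Bmp2 stood at 2.60, 2.49, 2.63 and 2.77 in nonTx and at 2.75, 2.51, 2.26 and 2.48 in Tx. Tx replicate 3 was the lowest and Tx replicate 1 nearly the highest, with a difference of -0.12 ± 0.11 (limma adjusted p = 0.632). It was -0.20 without Tx replicate 1, -0.04 without Tx replicate 3, -0.07 without nonTx replicate 4 and -0.02 with scaling to the median. Bmp6 differed by -0.09 ± 0.18, and its sign changed to 0.01 with normexp or with scaling to the median, and to 0.02 without Tx replicate 2.

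No gene of that pathway passed the adjusted test. Of 19 other genes of the BMP and hepcidin pathway, 14 were lower, beside 43.7% of all tested genes. The median difference was -0.09, beside 0.03 over all tested genes. Scaling to the median, which moves every difference up alike, took Bmp6, the gene at that median, to 0.01. An unadjusted p under 0.05 was reached by 3 of 19, all lower, a share near the 13.9% of all tested genes in either direction. By direction, 5.25% of tested genes were lower and 8.66% higher at that level. The groups of 2 of 19 did not overlap, both lower, beside 8.06% of tested genes in either direction. By direction, 2.95% of tested genes lay wholly lower and 5.12% wholly higher. Smad6, which encodes an inhibitory SMAD induced by BMP signals, read 211, 207, 246 and 211 in unscaled intensity in nonTx and 167, 154, 143 and 136 in Tx. All Tx arrays lay below all nonTx arrays, also after scaling, with a difference of -0.39 ± 0.11 (limma adjusted p = 0.290).

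Atoh8, a transcription factor gene induced by BMP signals in hepatocytes, read 281, 279.9, 288 and 383 in unscaled intensity in nonTx and 171, 228, 96.4 and 174 in Tx. All Tx arrays lay lower after scaling as well, Tx replicate 2 only narrowly, and the difference was -0.77 ± 0.24 (limma adjusted p = 0.304). Smad7, the other inhibitory SMAD gene, differed by -0.41 ± 0.18 (adjusted p = 0.375) with groups that overlapped. Hamp itself read 96703, 84586, 77278 and 131831 in unscaled intensity in nonTx and 44278, 95631, 21728 and 63963 in Tx. Tx replicates 1 and 3 were its lowest arrays after scaling and Tx replicate 2 lay above 3 of the nonTx arrays, with a difference of -0.80 ± 0.40 (limma adjusted p = 0.405). Id1, another target, differed by -0.14 ± 0.44, with its highest value on Tx replicate 4, and its sign changed without nonTx replicate 1 (0.11), Tx replicate 1 (0.09) or Tx replicate 3 (0.17). Tx replicate 3 also carried part of the Hamp and Smad7 differences, which were -0.46 and -0.23 without it, and Hamp was -1.13 without Tx replicate 2. Over all alternatives that kept the 8 arrays, Smad6 ran from -0.44 to -0.29, Atoh8 from -0.82 to -0.59, Smad7 from -0.49 to -0.31 and Hamp from -0.97 to -0.52.

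**Figure D3:**
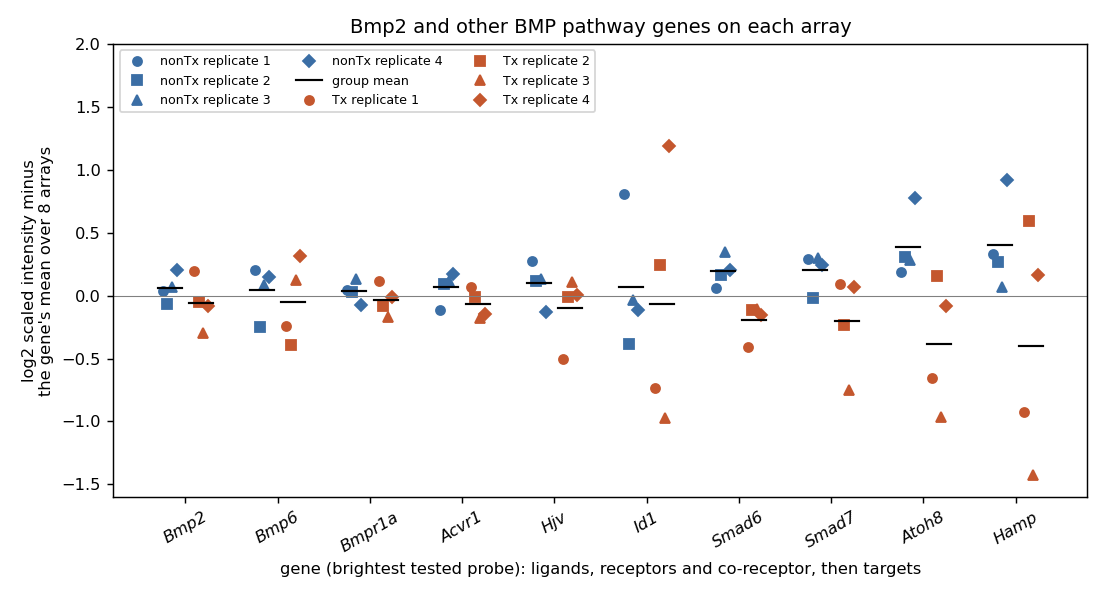
Scaled log2 intensity of Bmp2 and 9 other genes of BMP signalling on each array, minus that gene's mean over the 8 arrays; colours, shapes and bars are as in the plot of the markers. The ligand and receptor genes on the left lie between -0.50 and 0.32, whereas Hamp ranges from -1.43 to 0.92 and the Tx marks of Smad6 and Atoh8 lie below the nonTx marks.

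None of the 14 other lists held a gene that passed at an adjusted p under 0.05 by limma. An unadjusted p under 0.05 was reached by 1 of 9 genes in each of the VEGF, scavenger receptor and hepatocyte lists. It was reached by 1 of 6 DNase, 1 of 6 B cell, 1 of 4 lymphatic, 0 of 9 stellate cell and 0 of 4 cholangiocyte genes. Over all tested genes the share was 13.9%. Of 15 further genes of sinusoidal endothelium, 8 were higher and 7 lower, 0 had an unadjusted p under 0.05, and the median difference was 0.03. Ehd3, an endocytic trafficking gene, differed by 0.18 ± 0.10, and Mrc1, the mannose receptor gene, by -0.16 ± 0.09. Gata4, the transcription factor gene that maintains sinusoidal identity, differed by -0.16 ± 0.12. Of 21 genes shared by most endothelium, 13 were higher and 8 lower, with a median of 0.01, and 3 of 21 had an unadjusted p under 0.05, a share near the 13.9% of all tested genes. S1pr1, a sphingosine 1-phosphate receptor gene also used by lymphocytes to leave tissues, lay lower on all Tx arrays (-0.36 ± 0.13, limma adjusted p = 0.338). Egfl7, an endothelial matrix protein gene, lay higher on all Tx arrays (0.21 ± 0.08, adjusted p = 0.348). The third was Esam, a tight junction adhesion gene, at 0.27 ± 0.11 with groups that overlapped.

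Markers of vascular and capillarised endothelium, into which these cells turn when they lose their identity, had a median of 0.14 over 10 tested genes. Of the 10, 7 were higher and 3 lower, beside 43.7% of all tested genes lower. Their median deviation was -0.11 to -0.04 on the nonTx arrays and 0.25, -0.24, 0.17 and 0.11 on the Tx arrays. Tx replicate 2 thus lay below every nonTx array. Of these, 1 of 10 had an unadjusted p under 0.05, beside 13.9% of all tested genes. The same 1 of 10 lay wholly higher, beside 5.12% wholly higher and 8.06% without overlap in either direction. It was Fabp4, a fatty acid binding protein gene of capillaries and fat cells, which lay higher on all Tx arrays by 0.47 ± 0.11 (limma adjusted p = 0.265). Plvap, which forms the diaphragms of fenestrae, differed by 0.17 ± 0.09. Lymphatic markers had a median of -0.34 over 4 tested genes, 3 lower and 1 higher (Ccl21a at 0.23 ± 0.32). Prox1, the lymphatic master gene that hepatocytes also express, lay lower on all Tx arrays (-0.53 ± 0.13, adjusted p = 0.283), and Pdpn differed by -0.76 ± 0.50. Pdpn was -0.24 without Tx replicate 2, -1.16 without Tx replicate 1 and -0.16 with normexp.

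**Figure D4:**
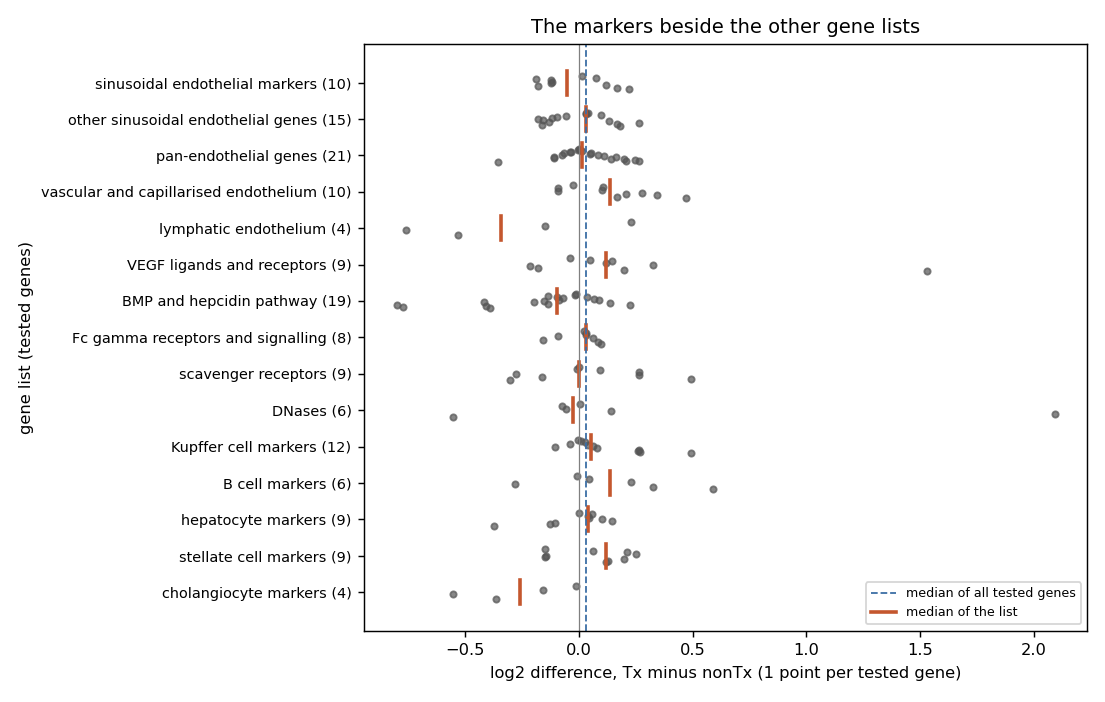
Log2 difference of Tx minus nonTx for every tested gene of the marker list and of 14 other lists (1 point per gene, number of tested genes in brackets), with the median of each list in orange and the median of all tested genes, 0.03, as a dashed line. The markers lie between -0.19 and 0.22, and single genes such as Nrp2 (1.53) and Dnase1 (2.09) stand far to the right.

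The scavenger receptor genes outside the list gave a median of 0.00 over 9 tested genes. Colec12, a scavenger receptor of vessel walls, differed by -0.30 ± 0.12 (limma adjusted p = 0.358), and Cd163, the haemoglobin scavenger receptor of macrophages, by 0.49 ± 0.24. Kupffer cells express Stab1, Fcgr2b and Dnase1l3 too. The 12 Kupffer cell markers, all tested, had a median of 0.05, with summed scaled signals of 175 to 238 in nonTx and 168 to 259.8 in Tx. An unadjusted p under 0.05 was reached by 0 of the 12, beside 13.9% of all tested genes. Of the Kupffer cell markers, Cd163 and Cd5l, a secreted macrophage protein gene (0.27 ± 0.16), had the smallest p. The 6 tested of 8 B cell markers had a median of 0.14, with 4 higher and 2 lower. Their summed signals were 4.82 to 5.603 in nonTx and 4.63 to 7.12 in Tx. Blnk differed by 0.59 ± 0.24 and Cd79b by 0.33 ± 0.18. In unscaled intensity Blnk read 1186 on Tx replicate 1 and 346 to 559 on all other arrays. Without Tx replicate 1 the Blnk difference was 0.36. Hepatocyte, stellate cell and cholangiocyte markers had medians of 0.04, 0.12 and -0.26 over 9, 9 and 4 tested genes. Their smallest p values were those of Ttr and Fgb at -0.37 ± 0.07 (limma adjusted p = 0.185) and -0.13 ± 0.09, Dcn and Colec11 at 0.12 ± 0.08 and 0.13 ± 0.09, and Sox9 and Krt7 at -0.36 ± 0.25 and -0.55 ± 0.39. Ttr was -0.14 with the mean of its tested probes, and Krt7 was 0.03 and Sox9 -0.12 with normexp. Krt7, 1 of the 4 cholangiocyte genes behind that median, was dim, with unscaled intensities of 4.40 to 18.4. It was well above background on 3 arrays of nonTx and 1 of Tx, so it was tested through nonTx alone. Dcn and Colec11 turned to -0.05 and -0.03 with quantile normalization. Their part in the marker values was not tested.

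Across arrays the markers did not move as a block. The median deviation of the 10 markers from their own means was 0.03, -0.07, 0.01 and 0.03 on the nonTx arrays and 0.02, -0.08, -0.14 and 0.07 on the Tx arrays. Tx replicate 3 was the lowest array for 4 of the 10 markers (Stab2, Kdr, Fcgr2b and Bmp2) and the highest for Gpr182 and Dnase1l3. Among all tested genes, 17.4% were lowest and 20.3% highest on that array. Without Tx replicate 1, the groups of 3 markers no longer overlapped (Stab1 and Kdr lower, Dnase1l3 higher), where the same held for 19.2% of all tested genes.

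The genes with profiles nearest to those of the most variable markers were found over all tested genes by the root mean square difference of their deviations on the 8 arrays. For Lyve1 (SD over the arrays 0.28) they were Zfp626 at 0.11, Gprasp1 at 0.13 and A930006K02Rik at 0.13. For Dnase1l3 (SD 0.18) they were Cops4 at 0.04, Mtfr1 at 0.04 and Agpat3 at 0.05. Each was higher in Tx by 0.21 to 0.24, which follows from their choice by profile over the same arrays. For Oit3 (SD 0.16) they were Ushbp1, Ckmt1 and Vwa1, at 0.06 to 0.07. The measure rests on 8 arrays, and genes of low spread lie close to each other by it.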

How the data were processed

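Liver RNA of 8 samples (0.5 ug each) was hybridised to 1-colour Agilent arrays. Per the file headers, the deposited intensity of each spot was background-subtracted and detrended with Feature Extraction 10.7.1.1, while the submitters' processing notes name version 9.1. The deposited log2 values were rebuilt within 0.00161 as log2 intensity scaled by the authors to a 75th percentile, less the median of the probe.

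Control spots were left out, outlier spots were set to missing (54 to 120 per array), and spots of a probe were averaged. Log2 intensities, scaled to the 75th percentile of their array, were compared by limma (version 3.58.1, R 4.3.3, variance trend, Benjamini-Hochberg adjustment, threshold 0.05) and checked on simulated data. Testing required signal well above background in 3 of 4 arrays of either group and 2 values in each, met by 30955 probes (46 values missing). Of the markers' 20 probes 18 were tested, with no missing value at the brightest ones. A gene is its brightest tested probe, 16495 genes in all. Symbols were updated through Entrez IDs (43901 of 46119 probes matched). Precision is limited by having 4 arrays a group.

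The members and lists were chosen with earlier results of these data known. Named were all markers, per other list the 2 genes of smallest p, and the 3 nearest profiles of the 3 most variable markers. Ccl21a, Esam, Vegfa, Flt1, Gata4, Smad7, Hamp, Id1 and Bmp6 were named after their values were seen. Alternatives covered background correction, scaling, filter, variance model, replicate block, probe summary and each array left out. All arrays shared a slide and scan, so no block for these could be fitted.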

Additional observations from a re-analysis of the deposited data

Results flagged for a closer look

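Among 20 marker groups of 4 arrays, 2 held an array set apart from the others by the gap test of Dixon, where chance alone gives about 1 in 20. The ratio of gap to range was 0.921 for Stab2 in Tx, where replicate 3 stood at 4.38 and the nearest array at 4.62. It was 0.847 for Kdr in Tx, where replicate 1 stood at 3.60 and the nearest array at 3.32.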

How the results depend on the processing

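The number of markers passing at an adjusted p under 0.05 was 0 under all alternatives, each left-out array included. Over all probes the count of 0 (4085 at an unadjusted p under 0.05) became 2 with normexp, 6 with scaling to the median, 1 with the authors' log2 values, 1 with no variance trend, 7 with array weights and 1 with the replicate block; it ran from 0 to 188 with 1 array left out, the highest without Tx replicate 2. The marker median moved from -0.05 to 0.049 with scaling to the median, and ran from -0.10 to 0.01 with 1 array left out. Markers whose groups do not overlap numbered 1 with scaling to the median (Dnase1l3), 1 relative to the pan-endothelial genes, an alternative chosen after seeing the data (Clec4g), and 0 to 3 with 1 array left out. The share of all tested genes was counted only in the main fit (8.06%) and without Tx replicate 1 (19.2%). The other counts have no such share to be read against. Signs changed with quantile normalization for Clec4g (-0.0192), Fcgr2b (-0.0441), Colec11 (-0.0283), Dcn (-0.0485) and Fcgrt (-0.023), and with the mean of a gene's tested probes for Clec4g (-0.0716) and Syk (-0.14). With array weights they changed for Fcgr2b (-0.0143) and Id1 (0.19), with normexp for Bmp6 (0.0127) and Krt7 (0.0328), with scaling to the median for Bmp6 (0.0061), and relative to the pan-endothelial genes for Fcgr2b (-0.0354). With 1 array left out, Bmp6 ran from -0.22 to 0.0191, Dnase1 from -0.0781 to 3.05, Fcgr2b from -0.0647 to 0.0744, Id1 from -0.55 to 0.17 and Oit3 from -0.0005 to 0.16. The causes were not tested. The labels do not say whether replicate numbers pair the samples. Correlations of same-numbered deviations ran from -0.01 to 0.10, and those of other numbers from -0.11 to 0.13, which does not settle it. The replicate block changed no marker's call and gave 4070 probes at an unadjusted p under 0.05. With the block the SE of Cd163 was 0.13, beside 0.24 without it, and that of Bmp2 was 0.11 either way. Signal over background limits the dim probes of Gpr182, Clec4g and Kdr, and among the other lists those of Krt7, Hamp2 and Dnase1l2, which were tested through nonTx alone.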
